A study of Danio rerio with 8 samples.

Results

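Transcripts of zic1, zic2a and zic2b, 3 genes in a table of 33843 loci, were followed in zebrafish embryos treated with a blocker of fibroblast growth factor (FGF) signalling. The genes were taken by their symbol in the authors' deposited table. They were chosen by their FPKM and calls in SU5402 and control embryos, so those values are a description and not a test of the genes. The label of neural zinc finger genes comes from what the genes are known for. No neural tissue was isolated here, since RNA came from whole embryos. Their relatives zic4, zic5 and zic6 are described beside them.

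Treated embryos were kept from early cleavage in 20 µM SU5402, an inhibitor of the FGF receptor kinase that is also known to act on some other receptor tyrosine kinases. Control embryos, which the series' design text calls WT, were kept in as much of its solvent DMSO. Both were harvested at the dome stage, a blastula stage soon after the embryo's own genes switch on. Each group had 2 RNA-seq samples, which the authors reduced to 1 value per locus and condition in FPKM, a level corrected for transcript length and library size. No value per sample, SD or depth could therefore be had, so a difference could not be set against replicate spread other than through the authors' own p and q. The labels state neither how many embryos went into a sample nor whether replicates came from separate clutches, so those p-values may reflect technical spread only. Another 4 samples, from ATAC-seq, were not analysed here.

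Zic genes encode transcription factors whose zinc fingers are related to those of the Gli family, and in vertebrates they are among the earliest genes active in prospective neural tissue and the neural plate border. FGF signals and inhibitors of BMP signalling both promote neural fate in the fish embryo, and the series' title names maternal and zygotic FGF in neural induction as its question. The human counterpart ZIC2 is known as a gene of forebrain malformation. In vertebrate genomes zic genes lie mostly in closely spaced pairs, and zebrafish carries a pair of zic2 copies from the fish genome duplication.

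The most abundant zic transcript was zic2b, which had 44.9 FPKM in SU5402 embryos and 145 FPKM in control embryos, a 3.24-fold lower level under the inhibitor. Its duplicate zic2a had 0.250 FPKM in SU5402 embryos and 8.85 FPKM in control embryos, a 35.4-fold lower level. The third gene, zic1, had 1.05 FPKM in SU5402 embryos and 1.54 FPKM in control embryos, 1.47-fold lower. All 3 pooled values were thus below control, by unequal factors, and zic2a was under 1 FPKM in SU5402 embryos while zic2b was not. In whole embryos, fewer zic-expressing cells and less zic RNA per cell cannot be told apart.

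In the authors' deposited table, zic2b had a log2 change of -1.70 (p = 5e-05, q = 0.000383) and zic2a a log2 change of -5.15 (p = 0.00185, q = 0.00888). The p of zic2b was the smallest in the table, a value shared by 108 loci. Both genes were called lower at a q of at most 0.05. The call rate for lower loci in the authors' deposited table was 2.06% of the 12757 tested, and 3.58% were called higher. Nothing is read from that rate for these genes, because the same contrast was known when they were chosen. A Benjamini-Hochberg adjustment of the authors' p over all tested loci gave an adjusted p of 0.00591 for zic2b and of 0.0849 for zic2a, so the zic2a call was lost there. That adjustment called 0.651% of tested loci lower and 0.996% higher. In the authors' deposited table, zic1 was marked as not tested (log2 change -0.55). Its level was of a kind rarely tested, since of 2526 loci whose higher condition lay between 1 and 2 FPKM only 354 (14.0%) were tested.

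**Figure D1:**
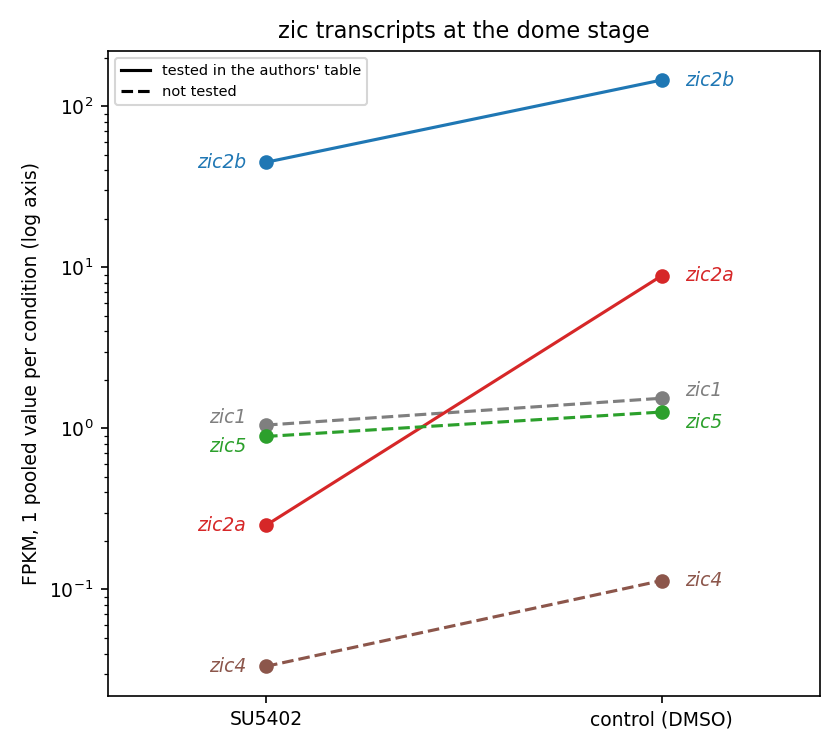
FPKM of zic1, zic2a, zic2b, zic4 and zic5 (log axis) in SU5402 embryos and control embryos, each point 1 pooled value per condition, with solid lines for genes the authors tested and dashed lines for genes they did not; zic6 was listed at 0 in both and is not drawn. The zic2b line stays above all others, while zic2a is above zic1 and zic5 in control embryos and below both in SU5402 embryos.

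The paralogs also differed in abundance. Ranked among all 33843 loci by FPKM, zic2b stood at position 2233 in SU5402 embryos and at position 474 in control embryos. Of the loci that reached 1 FPKM, 15.1% exceeded zic2b in SU5402 embryos and 3.23% in control embryos. The rank of zic2a was 18836 in SU5402 embryos and 6820 in control embryos, and that of zic1 was 14638 in SU5402 embryos and 13185 in control embryos. FPKM is scaled to length, so levels can be set side by side between genes, with limits for zic2a. Its row shares an interval with zic5, and how reads were divided between them is not known. Its level in SU5402 embryos was only 0.250 FPKM at unknown depth, so its rank and any ratio to it there are uncertain. The ratio of zic2b to zic2a was 179 in SU5402 embryos and 16.4 in control embryos, and the ratio of zic2b to zic1 was 42.8 in SU5402 embryos and 94.5 in control embryos. No test of the difference between the paralogs' changes could be made from pooled values.

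The genes zic4, zic5 and zic6 were weakly expressed. The values of zic5 were 0.891 FPKM in SU5402 embryos and 1.26 FPKM in control embryos, and those of zic4 were 0.0333 FPKM in SU5402 embryos and 0.113 FPKM in control embryos. The gene zic6 was listed at 0 in both conditions. None of zic4, zic5 and zic6 was tested. Of the 6 zic genes described here, 5 had the lower value in SU5402 embryos and none had the higher. Of these, zic1, zic2a and zic2b were chosen by these same values, so the count is a description and not a result about the family. As background, 46.4% of the 24432 loci above 0 in at least 1 condition had the lower value in SU5402 embryos, with no test. The 2 zic genes that were tested, zic2a and zic2b, are the 2 called lower, and they were chosen with those calls known. The median log2 change over all tested loci was 0.04.

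Summed over zic1, zic2a, zic2b, zic4, zic5 and zic6, transcripts amounted to 47.1 FPKM in SU5402 embryos and 157 FPKM in control embryos, 3.34-fold lower. Most of this sum was zic2b, which made up 95.3% of it in SU5402 embryos and 92.5% in control embryos. The share of zic2a was 0.531% in SU5402 embryos and 5.63% in control embryos, and that of zic1 was 2.22% in SU5402 embryos and 0.979% in control embryos. Without zic2b, the other 5 genes summed to 2.22 FPKM in SU5402 embryos and 11.8 FPKM in control embryos, 5.29-fold lower. Of the FPKM of these 6 genes missing from SU5402 embryos, 91.3% was zic2b.

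Fold changes of genes that approach 0 depend on how the smallest values are treated. With 1 FPKM added to both conditions, the log2 change was -2.98 for zic2a, -1.67 for zic2b and -0.31 for zic1. On that scale zic2a had the 10th and zic2b the 63rd lowest change of the 12757 tested loci. The order of zic2a and zic2b was thus the same with and without the added value, and the gap between the zic2 paralogs narrowed. Against loci of like abundance, 4 of the 4790 other tested loci within 2-fold of the control FPKM of zic2a had as low a deposited log2 change, loci at 0 in SU5402 embryos included. The same count was 7 of 1045 for zic2b. Both genes were chosen with these changes known, so the ranks and counts describe them and test nothing.

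In all, 4 tested loci above 0 in SU5402 embryos had a deposited log2 change of -5 or lower, zic2a, foxd3 and foxd5 among them. Of these 4, 2 were called in the authors' deposited table. Another 10 tested loci were listed at 0 in SU5402 embryos only, and zic2a had the 13th lowest deposited log2 change of the tested loci. The forkhead gene foxd3, a regulator of pluripotent cells and later of neural crest, had 0.0820 FPKM in SU5402 embryos and 11.4 FPKM in control embryos, and foxd5, a forkhead gene active early in dorsal ectoderm, had 0.871 FPKM in SU5402 embryos and 29.8 FPKM in control embryos. In the authors' deposited table foxd5 and zic2a were called (q = 0.000383 and q = 0.00888) and foxd3 was not (q = 0.392). In the other direction, 7 tested loci above 0 in control embryos had a log2 change of 5 or higher, and none of them had a call in the authors' deposited table. A further 32 tested loci were listed at 0 in control embryos only, against the 10 at 0 in SU5402 embryos only.

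The fall of zic2b was also set beside those of other abundant transcripts. Since zic2b was chosen with its fall known, the counts are a description and not a test. Of 791 tested loci with at least 100 FPKM in control embryos, 9 had a log2 change as low as that of zic2b, zic2b included. Of those 9, 3 were listed at 0 in SU5402 embryos, had no gene name and were all called per the authors' deposited table. The other 6 were above 0 in SU5402 embryos, and 2 of them, zic2b and id1, had a call in the authors' deposited table. The gene id1, a target of BMP signalling that encodes an inhibitor of bHLH factors, had 30.4 FPKM in SU5402 embryos and 204 FPKM in control embryos.

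**Figure D2:**
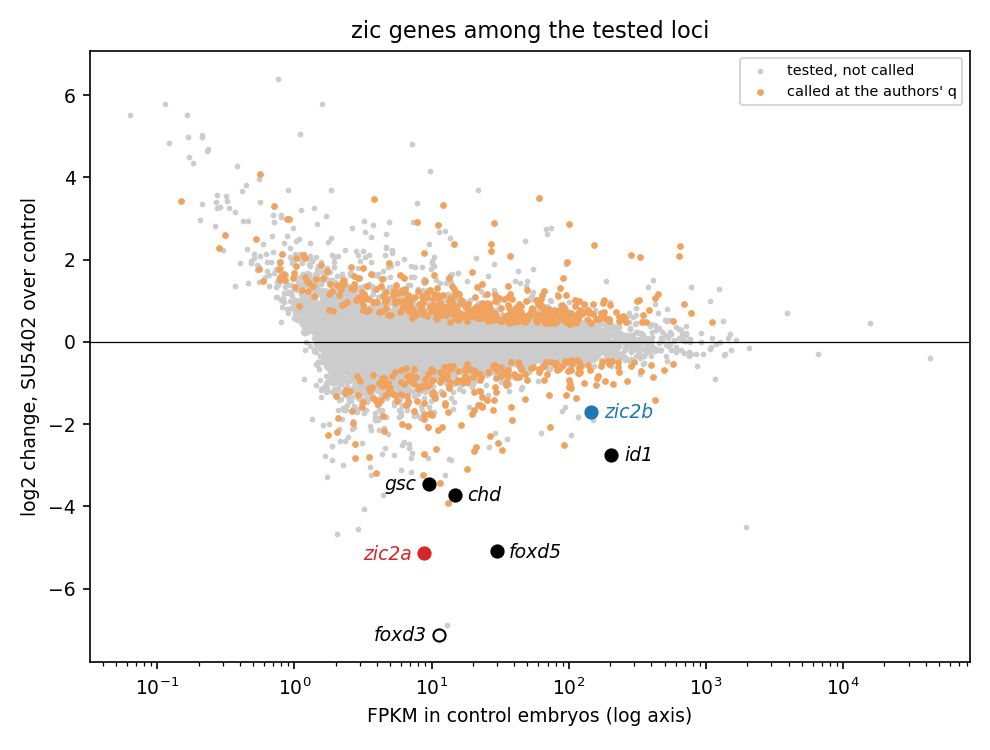
Log2 change (SU5402 over control) of each tested locus above 0 in both conditions against its FPKM in control embryos (log axis); orange and filled points were called at the authors' q and open named points were not. The genes zic2a, foxd3 and foxd5 lie at -5.10 or below, and zic2b lies at -1.70 among loci of its abundance.

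With only 2 values per gene, likeness of pattern comes down to level and change. For each called zic gene the 3 single-symbol tested loci nearest in log2 change were taken among those within 2-fold of its control FPKM. For zic2a these were chd, encoding the secreted BMP antagonist chordin, gsc, encoding the organizer homeobox repressor goosecoid, and dact2, encoding a regulator of Wnt and Nodal signalling. Their FPKM were 1.13 in SU5402 embryos and 14.8 in control embryos for chd, 0.866 in SU5402 embryos and 9.50 in control embryos for gsc, and 1.07 in SU5402 embryos and 11.5 in control embryos for dact2. Their log2 changes differed from that of zic2a by 1.43, 1.69 and 1.71, and all 3 were less negative. For zic2b the nearest were si:ch1073-228p2.2, CABZ01070258.1 and slc25a22, the last named for a mitochondrial solute carrier. Their log2 changes lay within 0.39 of that of zic2b. Of these 3, si:ch1073-228p2.2 had no call (q = 0.314 in the authors' deposited table), with 39.6 FPKM in SU5402 embryos and 149 FPKM in control embryos.

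The zic2a row (XLOC_033433 in the table) shared its region with zic5 (XLOC_034057). On the Zv9 assembly both rows were given the same interval of 40217 bases on chromosome 9, from 32307416 to 32347632, so the table does not separate their positions and does not say how reads were divided between them. The 2 rows differed in level and in change. Within the summed FPKM of the pair, zic5 made up 78.1% in SU5402 embryos and 12.5% in control embryos. The sum of both rows was 1.14 FPKM in SU5402 embryos and 10.1 FPKM in control embryos, a log2 change of -3.15. The nearest other rows, clybl and a 5S_rRNA row, shared the same interval 15.0 kb away on the side of lower coordinates. The 5S_rRNA row was listed at 0 in both conditions. The metabolic lyase gene clybl had 1.95 FPKM in SU5402 embryos and 3.25 FPKM in control embryos and had no call (q = 0.240 in the authors' deposited table).

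The zic2b row (XLOC_000329) held a region of its own of 29137 bases on chromosome 1, from 28776999 to 28806135. On its lower-coordinate side, 7.38 kb away, lay tm9sf2, a gene for a multi-pass membrane protein. It had 40.4 FPKM in SU5402 embryos and 63.0 FPKM in control embryos and had a lower call in the authors' deposited table (q = 0.00968), a call that was lost with the adjustment over all tested loci (adjusted p = 0.0890 from the authors' p). On the other side, 1.02 kb away, pcca, encoding a subunit of propionyl-CoA carboxylase, had 31.0 FPKM in SU5402 embryos and 32.7 FPKM in control embryos and was not called (q = 0.892 in the authors' deposited table). Both neighbours were thus below zic2b in control embryos, and 1 of the 2 was called in the same direction at a smaller fold.

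The gene zic1 also had a zic neighbour. On chromosome 24, zic1 (XLOC_020455) covered 3186 bases from 5050300 to 5053485 and zic4 began 4.10 kb beyond it. In the more recent RefSeq gene table, built on GRCz12tu, zic1 was again next to zic4, zic2a was again next to zic5, and zic2b again lay between tm9sf2 and pcca. In both pairs the genes differed in level: in control embryos zic1 had 1.54 FPKM and zic4 0.113 FPKM, and zic2a had 8.85 FPKM and zic5 1.26 FPKM.

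**Figure D3:**
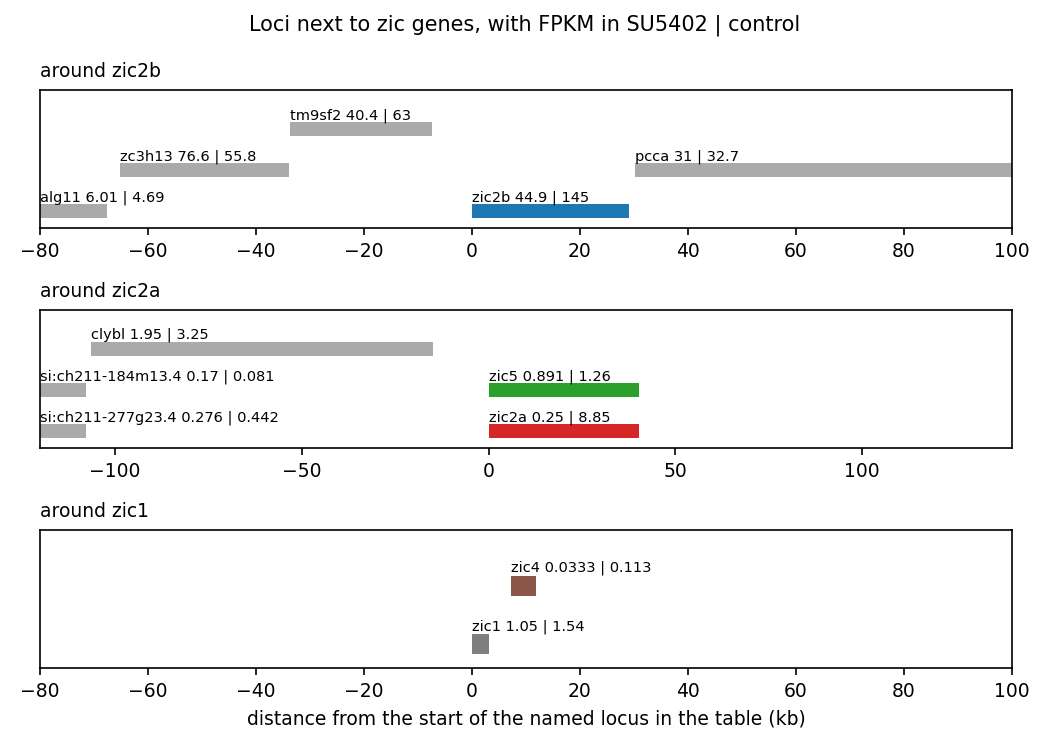
Intervals of the table around zic2b, zic2a and zic1, drawn as distance in kb from the start of each named locus, with FPKM in SU5402 embryos and in control embryos beside each name; rows at 0 are left out, and bars that touch the frame run on. The zic2a and zic5 bars cover the same interval, and zic2b lies between tm9sf2 and pcca.

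Genes of the early nervous system other than zic were read from a list without zic genes. The list was drawn up with earlier results of these data known, so its counts are a description and not a test. Of 46 of its symbols found, 22 rows were tested and reached 1 FPKM, and 4 of these had a lower and 2 a higher call in the authors' deposited table, against 2.06% and 3.58% of all tested loci. The 4 lower were foxb1.2, irx1b, sox11a and cyp26a1. The forkhead gene foxb1.2 had 0.428 FPKM in SU5402 embryos and 3.93 FPKM in control embryos (log2 change -3.20, q = 0.00765 in the authors' deposited table), and a second row of that name was listed at 0 in both. The SoxC gene sox11a had 65.3 FPKM in SU5402 embryos and 130.1 FPKM in control embryos, close to zic2b in control level with a smaller change (log2 change -0.995 in the authors' deposited table). The homeobox gene irx1b had 1.70 FPKM in SU5402 embryos and 3.66 FPKM in control embryos, and cyp26a1, encoding an enzyme that degrades retinoic acid, had 22.7 FPKM in SU5402 embryos and 41.3 FPKM in control embryos.

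The 2 members of the neural list called higher were otx1a and gmnn. The head homeobox gene otx1a had 6.47 FPKM in SU5402 embryos and 2.59 FPKM in control embryos. The gene gmnn, encoding geminin, had 1254 FPKM in SU5402 embryos and 776 FPKM in control embryos, the highest level of the list in each condition. In whole embryos these values cannot be assigned to neural cells. The median log2 change of the 22 was 0.05, against 0.04 over all tested loci, so the list's median was close to that of all loci. With the adjustment over all tested loci, 2 members were lower and none higher. The SoxB1 genes, which mark and maintain neural progenitors, were not called: sox3 had 56.5 FPKM in SU5402 embryos and 68.2 FPKM in control embryos. The maternally supplied sox19b had 56.6 FPKM in SU5402 embryos and 55.1 FPKM in control embryos, and sox19a had 115 FPKM in SU5402 embryos and 87.2 FPKM in control embryos. The later neural genes sox2 (0.854 FPKM in SU5402 embryos, 0.734 FPKM in control embryos) and otx2 (0.963 FPKM in SU5402 embryos, 0.708 FPKM in control embryos) were not tested.

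**Figure D4:**
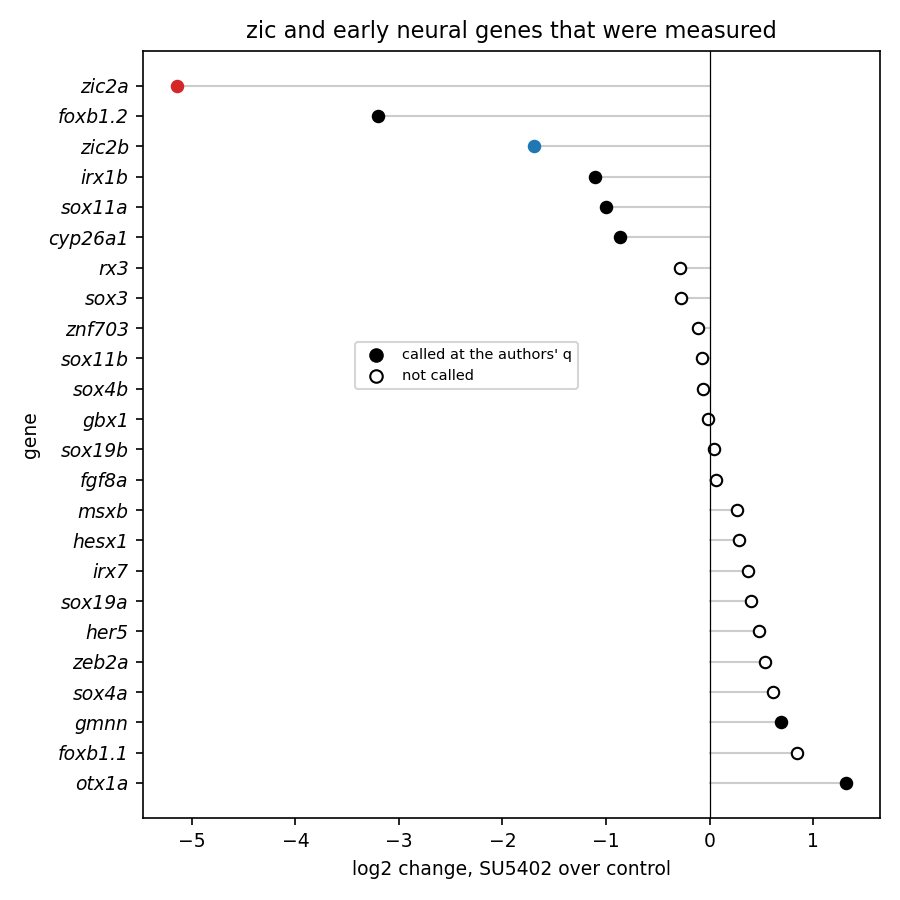
Log2 change (SU5402 over control) of zic2a and zic2b in colour and of 22 measured early neural genes in black, filled where the authors' q called them and open where it did not. The lowest place is that of zic2a, with foxb1.2 at -3.20 between it and zic2b, and most neural genes lie near 0.

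Regulators of early zygotic genes, organizer genes and BMP pathway genes were read in the same way, against the 2.06% of tested loci called lower and 3.58% called higher. These lists too were drawn up with earlier results of these data known, so their counts test nothing. Of 10 measured early regulators, 3 had a lower call in the authors' deposited table (foxd5, foxh1 and vgll4l) and 1 a higher one (blf). With the adjustment over all tested loci 2 were lower (foxd5 and foxh1) and none higher. Among those not called, pou5f1, whose maternal product is known to activate early zygotic genes in zebrafish, had 405 FPKM in SU5402 embryos and 461 FPKM in control embryos, and nanog had 1178 FPKM in SU5402 embryos and 1106 FPKM in control embryos. Of 10 measured organizer genes and BMP antagonists, 5 had a lower call in the authors' deposited table (chd, gsc, sp5l, foxa3 and flh) and none a higher one, and 3 (chd, gsc and foxa3) were lower with the adjustment over all tested loci. The antagonist gene nog1 had 4.03 FPKM in SU5402 embryos and 4.11 FPKM in control embryos. Of 16 measured BMP pathway genes, 1 was called lower (id1) and 1 higher (szl) in the authors' deposited table, and the call of szl was lost with the adjustment over all tested loci.

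Known FGF feedback and target genes, read from 1 list, were lower in treated embryos for part of that list. That list too was drawn up with earlier results of these data known, so its counts are a description and not a test. In the authors' deposited table, 6 of 13 measured members of it had a lower and 1 a higher call, against 2.06% and 3.58% of all tested loci, and the median log2 change was -1.27. With the adjustment over all tested loci 4 were lower and none higher. The higher call was that of spred2b, with 5.71 FPKM in SU5402 embryos and 3.40 FPKM in control embryos (q = 0.0489 in the authors' deposited table). Members not called included etv5a, erf and il17rd, whose log2 changes were -0.05, -0.03 and -0.13. The phosphatase gene dusp6, an immediate feedback inhibitor of the pathway, had 2.13 FPKM in SU5402 embryos and 18.2 FPKM in control embryos, an 8.53-fold lower level that lies between the folds of zic2b and zic2a. The ETS gene etv4 had 6.41 FPKM in SU5402 embryos and 20.3 FPKM in control embryos, 3.17-fold lower, next to the 3.24-fold of zic2b, while its relative etv5b (39.6 FPKM in SU5402 embryos, 68.9 FPKM in control embryos) had no call (q = 0.0750 in the authors' deposited table). The feedback gene spry4 was another case of a large fold with no call, with 0.125 FPKM in SU5402 embryos and 2.92 FPKM in control embryos (q = 0.0523 in the authors' deposited table).

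Marker lists of cell types and of later tissue were also read, with calls from the authors' deposited table. Of all tested loci, 2.06% were called lower and 3.58% higher. These lists too were chosen with earlier results of these data known. Whether treated and control embryos were at the same point of the blastula was not tested. Markers of later differentiated tissue summed to 3.45 FPKM in SU5402 embryos and 2.63 FPKM in control embryos over 14 rows, of which 13 were under 1 FPKM in both, and the neuronal marker elavl3 was the highest in each condition. Enveloping layer markers summed to 478 FPKM in SU5402 embryos and 439 FPKM in control embryos. Of 7 measured, 1 was called lower (cldne) and 1 higher (krt8). Yolk syncytial markers summed to 799 FPKM in SU5402 embryos and 479.7 FPKM in control embryos, with 1 of 7, apoeb, called higher. Of these sums apoeb gave 661 FPKM in SU5402 embryos and 328 FPKM in control embryos, and the median log2 change of the 7 was -0.006. Germ plasm and maternal markers summed to 1775 FPKM in SU5402 embryos and 1324 FPKM in control embryos. Of 8 measured, 1 was called lower (zp2.3) and 2 higher (h1m and zar1). Most of these sums was h1m, with 1549 FPKM in SU5402 embryos and 1108 FPKM in control embryos, and the median log2 change of the 8 was 0.04. Zygotic blastoderm markers summed to 3552 FPKM in SU5402 embryos and 1328 FPKM in control embryos. Of these sums tbx16 gave 2679.9 FPKM in SU5402 embryos and 634 FPKM in control embryos. The median log2 change of the 7 measured was 0.25, and 3 of them (tbx16, blf and klf2a) were called higher. With the adjustment over all tested loci, the marker calls left were 1 blastoderm and 1 yolk syncytial gene, both higher. The part of these differences in the zic values was not tested.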

How the data were processed

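RNA-seq of SU5402 and control embryos, 2 samples each, was used. The authors deposited a table of their own comparison with 1 FPKM value per locus and condition, pooled over replicates, a log2 fold change, a test statistic (a score), a p-value and a q-value, per the file headers. Reads went through TopHat2, Picard, Cufflinks and Cuffdiff on Zv9 (danRer7), per the submitters' processing notes, which give no versions. The depth is unknown and values carry no counting interval.

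Of 33843 loci, 12757 were tested. The authors' p was adjusted again over these (Benjamini-Hochberg, checked on simulated data), because the deposited q of 0.04996 at a p of 0.0151, the largest that was called, became 0.268. Folds are ratios of FPKM. Genes count as measured if tested and at 1 FPKM or more in either condition. Starts are 1-based, with 1 added. The symbols zic1, zic2a and zic2b all matched the RefSeq gene table. Some genes are not reported here and are left out of list counts and sums, though not of counts over all loci. Sequences were not used here.

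The members and lists were chosen with earlier results of these data known. Named genes were the zic genes described, the rows at and beside their loci, called members of the lists, a fixed set (sox2, sox3, sox19a, sox19b, otx2, chd, gsc, dusp6, spry4, etv4, etv5b, foxd3, foxd5, pou5f1) and the genes most like each called zic gene. Others were named after their values were seen. These were nanog, nog1, elavl3, gli2a, smo, lef1, tcf7l1a, tcf7l1b, ctnnb1, sufu, etv5a, erf, il17rd and those at the extremes of the table. Alternatives were pseudocounts of 1 and 0.1 FPKM, median centring, upper quartile scaling, other minimum levels and summed rows. Work used Python 3.11.15, pandas 2.3.3 and numpy 2.4.6.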

Additional observations from a re-analysis of the deposited data

How the results depend on the processing

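No paired analysis was possible because the table gives 1 pooled value per condition, and for the same reason no replicate could be left out. With the adjustment over all tested loci the zic2a call was lost (log2 change -5.15, adjusted p = 0.0849 from the authors' p). The counts there were 1 zic gene lower, 2 neural genes lower and 0 higher, and 4 FGF genes lower and 0 higher. A 5 FPKM minimum left 2 neural genes called lower and 2 higher, and 4 FGF genes called lower and 1 higher. The zic2b call did not change with the adjustment over all tested loci, and no call was made anew on the other scales. The direction of zic1, zic2a and zic2b could not change on those scales. A pseudocount keeps the sign, and the shifts by median centring and upper quartile scaling were smaller than the changes. Summing zic2a with zic5 gave -3.15 and summing zic2a with zic2b -1.77. With pseudocounts of 1 and 0.1 FPKM, with median centring and with upper quartile scaling, in that order, zic1 had -0.31, -0.51, -0.59 and -0.64 and the FGF median was -1.01, -1.26, -1.31 and -1.36. The neural median was 0.045 with a pseudocount of 1 FPKM and 0.013 centred, and it changed sign to -0.036 with upper quartile scaling, which shifts every locus by -0.086. With a 5 FPKM minimum the neural median was 0.17 and the FGF median -0.80. Unknown depth limits what can be said of values under 1 FPKM, including zic2a in SU5402 embryos.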

Other observations

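Relatives and partners of zic proteins were read from lists. None of the 7 gli and glis genes found was measured, and the highest, gli2a, had 1.02 FPKM in SU5402 embryos and 1.08 FPKM in control embryos. Zic proteins are known to bind Gli and TCF proteins, so Hedgehog and Wnt pathway components were listed as well. The Hedgehog transducer gene smo had 1.21 FPKM in SU5402 embryos and 3.02 FPKM in control embryos and had no call (q = 0.0553 in the authors' deposited table). The TCF genes lef1, tcf7l1a and tcf7l1b and the genes ctnnb1 (beta-catenin) and sufu, an inhibitor of Gli proteins, were not called either.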
